A study of Mus musculus with 8 samples.

Results

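The genes described here are 10 receptors through which neutrophils sense chemoattractants: the formyl peptide receptors Fpr1 and Fpr2, the complement receptors C5ar1 and C3ar1, the chemokine receptors Cxcr2, Cxcr4 and Ccr1, the atypical receptor Ccrl2, and the lipid mediator receptors Ltb4r1 and Ptafr. They were taken by symbol from the table of read counts, where they are 10 of 24421 genes. All 10 were among the 12254 genes tested, those with 1 count or more in 2 libraries or more. Neutrophils were taken from the bone marrow of 8-week-old female C57BL/6 mice by magnetic isolation and their RNA was sequenced in 4 groups of 2 libraries each. WT and Padi4-/- (Padi4 KO) neutrophils were either unstimulated or given R848, a TLR7 agonist, at 1 µg/ml for 6 h. The Padi4 KO mice lack exon 1 of Padi4, the gene of the enzyme peptidylarginine deiminase 4, and the deletion was not described as limited to neutrophils. The labels give 0 h for the unstimulated libraries whereas the methods describe a 6 h incubation for all cells, so an R848 response may include the effect of the culture itself. The libraries of a group were described as duplicates and not as separate mice, so every p-value measures only the spread between these libraries, which may be technical.

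Chemoattractant receptors are G protein-coupled receptors that act mainly through Gi proteins, and the released beta-gamma subunits drive phosphoinositide 3-kinase gamma, Rac and the actin rearrangement of a migrating neutrophil. Receptors for end-target attractants, such as formyl peptides and C5a, guide cells at sites of infection, while CXCR2 and CXCR4 act in opposite directions in the bone marrow: CXCR4 holds neutrophils there through CXCL12 and CXCR2 ligands release them. After ligand binding the receptors are phosphorylated by G protein-coupled receptor kinases and bound by arrestins.

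The libraries held 562446 to 1177972 counts on genes, and each of the 4 Padi4 KO libraries was deeper than each of the 4 WT libraries. A gene with 3 counts in a library stood at 2.18 to 6.11 CPM, the normalised read count scaled to library totals of 1e+06. As a check of the labels, Padi4 had 166 to 590 counts in the WT libraries and 21 to 54 in the Padi4 KO libraries. The 10 neutrophil markers S100a8, S100a9, Csf3r, Mmp8, Mmp9, Retnlg, Camp, Ngp, Ltf and Itgam summed to between 101792 and 156614 CPM of the library total in all 8 libraries. All 10 were lower in unstimulated Padi4 KO than WT neutrophils, with a median log2 fold change of -0.60, and 9 were lower after R848, with a median of -0.62. The 7 erythroid genes with a count summed to 51.6 to 57.7 CPM in unstimulated WT and 563 to 586 CPM in unstimulated Padi4 KO libraries, and to 8.97 to 11.5 and 811 to 847 CPM after R848; Hba-a1, Hbb-bs and Hbb-bt were at 0 throughout. The 12 monocyte and macrophage genes summed to 523 to 653 CPM in unstimulated WT and 1343 to 1354 CPM in unstimulated Padi4 KO libraries, and to 2972 to 3072 and 3174 to 3263 CPM after R848. A few genes carry this rise: of the 11 tested, 4 were higher and 3 lower after R848 in WT (median log2 fold change -0.84), and 4 and 4 in Padi4 KO (median -0.93). Lymphocyte genes summed to at most 31.2 CPM and eosinophil and basophil genes to at most 76.4 CPM in any library. Stromal and endothelial genes summed to 233 to 301 CPM in unstimulated WT and 596 to 764 CPM in unstimulated Padi4 KO libraries, and to 123 to 124 and 76.7 to 85.7 CPM after R848. The part of these genes in the values below was not tested. The study's methods describe a high purity of CD11b+ Ly6G+ cells after magnetic isolation, and in bulk RNA a smaller share of neutrophils and less RNA of a gene in each neutrophil cannot be told apart.

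The promoters of 4 receptors are shown because their transcripts carry the results: Fpr1, C3ar1 and Ccrl2 had the largest rises after R848, and Cxcr4 was the only receptor whose difference of response between genotypes was called. Each sequence is the 250 bases before the start of the gene in RefSeq, build GRCm38.p6, written 5′ to 3′ on the strand of the gene, with matches to any of 4 searched motifs in capitals.
Fpr1, chr17:17883940-17884189, minus strand: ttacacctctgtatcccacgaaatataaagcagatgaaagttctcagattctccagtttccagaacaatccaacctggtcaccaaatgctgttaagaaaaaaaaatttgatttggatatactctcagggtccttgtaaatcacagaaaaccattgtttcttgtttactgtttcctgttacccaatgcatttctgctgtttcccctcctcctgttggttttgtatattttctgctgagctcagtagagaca
C3ar1, chr6:122856158-122856407, minus strand: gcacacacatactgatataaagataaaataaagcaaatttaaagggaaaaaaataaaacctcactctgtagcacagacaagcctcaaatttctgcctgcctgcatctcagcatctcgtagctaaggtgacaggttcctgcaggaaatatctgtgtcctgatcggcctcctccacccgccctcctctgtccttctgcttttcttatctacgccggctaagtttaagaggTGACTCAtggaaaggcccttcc
Ccrl2, chr9:111057519-111057768, minus strand: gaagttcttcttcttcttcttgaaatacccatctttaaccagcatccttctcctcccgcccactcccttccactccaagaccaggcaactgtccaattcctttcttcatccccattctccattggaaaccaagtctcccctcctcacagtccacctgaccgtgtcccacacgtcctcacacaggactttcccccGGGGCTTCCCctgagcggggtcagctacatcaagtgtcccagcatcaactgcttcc
Cxcr4, chr1:128592300-128592549, minus strand: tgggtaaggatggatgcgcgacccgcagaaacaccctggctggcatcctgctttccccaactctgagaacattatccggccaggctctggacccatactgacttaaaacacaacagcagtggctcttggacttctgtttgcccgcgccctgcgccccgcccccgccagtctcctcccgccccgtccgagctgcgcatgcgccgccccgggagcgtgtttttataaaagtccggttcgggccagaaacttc
The motifs were the kappa B consensus of NF-kappa B, the AP-1 motif TGACTCA or TGAGTCA, the C/EBP motif of TTGC and AA around any 2 bases, and the PU.1 core GAGGAA, each on both strands. No motif overlapped another in these windows. Ccrl2 held a kappa B match 56 to 47 bases before its start and C3ar1 an AP-1 match 22 to 16 bases before its start. Ccrl2 has 3 annotated starts, and the window of the first of them is shown. The windows of its other starts held none of the 4 motifs. Neither Fpr1 nor Cxcr4 held any of the 4 motifs in this window, nor did C5ar1. The other 5 receptors, Fpr2, Cxcr2, Ccr1, Ltb4r1 and Ptafr, held the PU.1 core alone. Of all 27025 promoters of this length, 3.75% held the kappa B consensus, 4.43% the AP-1 motif, 9.55% the C/EBP motif and 23.1% the PU.1 core. A match describes the letters of the window and says nothing of binding in these cells.

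All 10 receptors were called as changed after R848 in both genotypes, 6 upwards and 4 downwards. The direction was the same in WT and Padi4 KO neutrophils for each receptor. In Padi4 KO the calls of Cxcr4 and Ltb4r1 were not kept in every other fit, as given below. Fpr1, Fpr2, C5ar1, C3ar1, Ccrl2 and Ptafr rose, while Cxcr2, Cxcr4, Ccr1 and Ltb4r1 fell. Calls rest on the quasi-likelihood test of edgeR, with p-values adjusted over all genes tested by the Benjamini-Hochberg method, and a false discovery rate under 0.1. By the same rule 13.5% of all genes tested were higher and 16.0% lower after R848 in WT, and 19.2% were higher and 15.9% lower in Padi4 KO neutrophils. In neither genotype did the R848 libraries of any receptor overlap its unstimulated libraries, which also held for 54.5% of all genes tested in WT and 61.2% in Padi4 KO. The median log2 fold change of the 10 receptors was 1.29 in WT and 1.43 in Padi4 KO neutrophils, beside -0.17 and -0.03 over all genes tested. It was -0.07 and 0.08 over the 6912 genes with a mean of at least 10 counts.

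**Figure D1:**
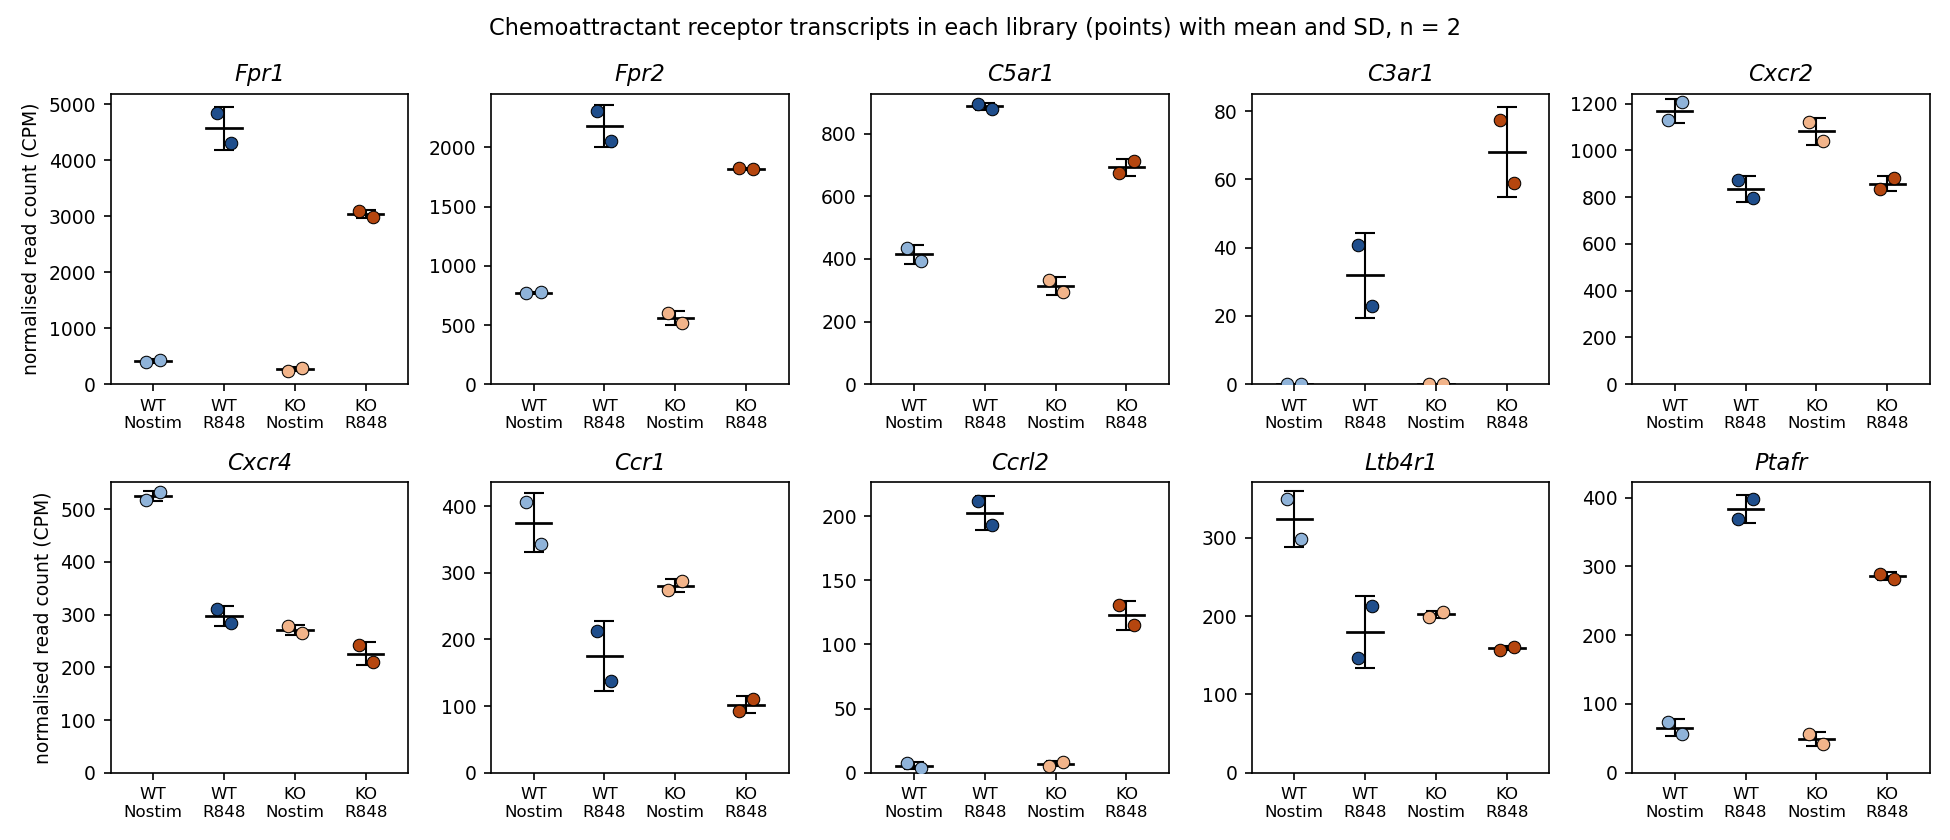
Normalised read count (CPM, y axis, each panel from 0 on its own scale) of the 10 receptors in the 8 libraries (points), with the mean and SD (n = 2) of each of the 4 groups on the x axis. Fpr1, Fpr2, C5ar1, C3ar1, Ccrl2 and Ptafr were higher and Cxcr2, Cxcr4, Ccr1 and Ltb4r1 lower after R848 in both genotypes, with no overlap between the libraries (54.5% of all genes tested in WT and 61.2% in Padi4 KO had none).

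Among the formyl peptide receptors, Fpr1 had the largest level of all receptors after R848. Fpr1 (chromosome 17, 17876471 to 17883940 of GRCm38, minus strand) encodes the main receptor for N-formylated peptides of bacteria and mitochondria. Its normalised read count was 394 and 439 CPM in the unstimulated WT libraries and 4842 and 4299 CPM in the WT libraries given R848. In Padi4 KO neutrophils it was 240 and 290 CPM before and 3096 and 2992 CPM after R848. Both Padi4 KO libraries lay below both WT libraries in either state, and the R848 libraries stood far above the unstimulated ones. The rise was 11-fold in WT (log2 fold change 3.46, standard error 0.08) and 11.3-fold in Padi4 KO neutrophils (3.50, standard error 0.08). The responses differed by 0.05 on the log2 scale (95% interval -0.19 to 0.28, adjusted p = 0.968), and the sign of this small difference turned with other scalings of the libraries.

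Fpr2 (chromosome 17, 17887824 to 17893952, plus strand), the neighbour of Fpr1, binds formyl peptides with lower affinity and also serum amyloid A and annexin A1. It had 767 and 780 CPM in unstimulated WT libraries and 2309 and 2054 CPM after R848, and 603 and 520 CPM followed by 1825 and 1814 CPM in Padi4 KO libraries. Again the groups did not overlap. Fpr2 rose 2.82-fold in WT and 3.26-fold in Padi4 KO neutrophils, and the difference of the responses was 0.21 on the log2 scale (95% interval -0.0043 to 0.43, adjusted p = 0.390). Of the 50-base stretches in the transcript of Fpr2, 31.5% also occur in Fpr3, Fpr1 or Gm5966, and 48 bases of its exons overlap Fpr3, so the count of Fpr2 is uncertain. Fpr3 was at 0 in all libraries, and only 0.0784% of the stretches of Fpr1 are shared. The ratio of Fpr1 to Fpr2 counts, which does not depend on library scaling, went from below to above 1 with R848 in both genotypes. It was 0.514 and 0.562 in unstimulated WT libraries and 2.10 and 2.09 after R848, and 0.398 and 0.559 followed by 1.70 and 1.65 in Padi4 KO libraries. This ratio and the others below were chosen after the values were seen.

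Complement receptors also rose, from very different starting levels. C5ar1 (chromosome 7, 16246743 to 16259540, minus strand) encodes the receptor of the anaphylatoxin C5a, a potent neutrophil attractant. The unstimulated WT libraries had 436 and 394 CPM of C5ar1 and the R848 libraries 895 and 880 CPM. The Padi4 KO libraries had 334 and 295 CPM before and 673 and 711 CPM after R848, below WT in both states. C5ar1 rose 2.13-fold in WT (log2 fold change 1.09, standard error 0.10) and 2.22-fold in Padi4 KO neutrophils (1.15, standard error 0.09), a difference of 0.06 with a 95% interval of -0.20 to 0.32.

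C3ar1 (chromosome 6, 122847138 to 122856161, minus strand) encodes the receptor of C3a and is expressed by monocytes and macrophages as well as by granulocytes. No read was counted on it in any of the 4 unstimulated libraries. After R848 it had 20 and 13 counts in the WT libraries and 87 and 64 counts in the Padi4 KO libraries. Thus C3ar1 was detected in R848-treated neutrophils of both genotypes and in none of the unstimulated libraries, at levels that stayed low. Against a limit of 3 counts over both unstimulated libraries, it was at least 12.8-fold higher after R848 in WT and at least 51.4-fold higher in Padi4 KO neutrophils, bounds that cover counting error only. The Padi4 KO libraries were the deeper ones, and no difference of the responses is given against groups at 0. After R848, C3ar1 had 31.9 ± 12.6 CPM in WT and 68.1 ± 13.1 CPM in Padi4 KO neutrophils (SD, n = 2). This made it 2.17-fold higher in Padi4 KO (log2 fold change 1.12, standard error 0.27, adjusted p = 0.000471), the only receptor that was higher. The call was lost with DESeq2 (adjusted p = 0.255), without WT R848 library 2 (0.66, adjusted p = 0.220) and without Padi4 KO R848 library 1 (0.80, adjusted p = 0.102). Of the 11 monocyte and macrophage genes tested, 5 were higher and 1 lower in Padi4 KO neutrophils after R848. This was so for 9.46% and 7.81% of all genes tested. After R848 the 12 listed summed to 2972 to 3072 CPM of the library total in WT and 3174 to 3263 CPM in Padi4 KO. Their part in the C3ar1 values was not tested.

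The chemokine receptors fell after R848. Cxcr2 (chromosome 1, 74153989 to 74161246, plus strand) encodes the receptor of CXCL1, CXCL2 and related chemokines that mobilise neutrophils and draw them into tissue. It had 1130 and 1205 CPM in unstimulated WT libraries and 874 and 795 CPM after R848, and 1122 and 1040 CPM followed by 835 and 880 CPM in Padi4 KO libraries. The R848 libraries lay below the unstimulated ones in each genotype, and the genotypes lay close together. Cxcr2 fell by 0.49 on the log2 scale in WT (standard error 0.08, adjusted p = 1.37e-07) and by 0.33 in Padi4 KO neutrophils (standard error 0.08, adjusted p = 8.08e-05). The difference of the responses was 0.15 (95% interval -0.07 to 0.38, adjusted p = 0.617). Some 6.68% of its 50-base stretches occur in other genes.

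Cxcr4 (chromosome 1, 128588199 to 128592293, minus strand) encodes the receptor of CXCL12, the chemokine that retains neutrophils in the marrow and recalls aged ones. Unstimulated WT libraries had 518 and 532 CPM and unstimulated Padi4 KO libraries 278 and 264 CPM, about the level that WT libraries reached after R848, 310 and 283 CPM. In Padi4 KO libraries given R848 it was 242 and 210 CPM. The WT groups lay far apart, whereas the Padi4 KO groups, both below WT in their state, lay close together without overlap. Cxcr4 fell by 0.83 on the log2 scale in WT (standard error 0.11, adjusted p = 7.38e-12) and by 0.26 in Padi4 KO neutrophils (standard error 0.11, adjusted p = 0.0512). The call in Padi4 KO was lost with DESeq2 (adjusted p = 0.103) and without Padi4 KO unstimulated library 1 (adjusted p = 0.208) or 2 (0.116) or Padi4 KO R848 library 2 (0.112). The responses differed by 0.57 (standard error 0.16, 95% interval 0.26 to 0.88, adjusted p = 0.0143), the only difference among the receptors to be called. In all genes tested, the difference was called higher for 3.45% and lower for 1.26%, or 423 and 154 genes. Without any 1 of the 4 R848 libraries this balance turned, to 51 and 246 (WT library 1), 121 and 350 (WT library 2), 67 and 228 (Padi4 KO library 1) and 69 and 199 (Padi4 KO library 2).

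The difference for Cxcr4 depended on how the libraries were scaled and on single libraries. It was 0.41 and not called with RLE factors (adjusted p = 0.168) or DESeq2 (0.41, adjusted p = 0.456), and 0.50 and called with the library size alone (adjusted p = 0.0611). It was also not called without Padi4 KO unstimulated library 2 (0.52), WT R848 library 1 (0.36) or 2 (0.27), or Padi4 KO R848 library 1 (0.23) or 2 (0.44). With the main scaling the median difference over the 6912 genes with a mean of at least 10 counts was 0.18, and with RLE factors it was 0.024; relative to that median, the value for Cxcr4 was 0.39 in both. The ratio of Cxcr2 to Cxcr4 counts is free of scaling: it was 2.18 and 2.27 in unstimulated WT libraries and 2.82 and 2.81 after R848. In Padi4 KO libraries it was 4.03 and 3.94 before and 3.46 and 4.18 after R848. All 4 Padi4 KO libraries had a higher ratio than all 4 WT libraries, and the ratio shifted with R848 in WT without overlap, but not in Padi4 KO.

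Of the 2919 genes with a mean of at least 50 counts, 3 resembled Cxcr4 most in log2 CPM over the 8 libraries. These were Sla, the gene of an adaptor that dampens antigen receptor signalling, with a Pearson r of 0.985, Cyb5r4, a cytochrome b5 reductase, with 0.978, and Arhgap9 with 0.977. The 8 points share their 4 groups and their scaling, so r describes the pattern of group means. Mean Sla expression was 753 CPM in unstimulated WT and 353 CPM in unstimulated Padi4 KO neutrophils, and 355 and 292 CPM after R848, in the same order as Cxcr4.

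Ccr1 (chromosome 9, 123962124 to 123968692, minus strand) encodes a receptor of CCL3, CCL5, CCL6 and CCL9. It had 407 and 344 CPM in unstimulated WT libraries and 212 and 138 CPM after R848, and 274 and 288 CPM followed by 93.3 and 111 CPM in Padi4 KO libraries. The groups were separate in each genotype, although the WT R848 libraries lay far apart. Ccr1 fell by 1.12 on the log2 scale in WT and by 1.46 in Padi4 KO neutrophils, the largest falls among the receptors. Its rank in WT is uncertain. Leaving out 1 library, the WT log2 fold change ran from -1.31 to -0.73 for Ccr1 and from -1.05 to -0.48 for Ltb4r1. The difference of the Ccr1 responses, -0.34, was not called (95% interval -0.71 to 0.02, adjusted p = 0.428). It was called without WT R848 library 2 (-0.87, adjusted p = 0.00229) or without Padi4 KO R848 library 2 (-0.70, adjusted p = 0.0853).

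Ccrl2 (chromosome 9, 111054486 to 111057519, minus strand) encodes an atypical receptor that binds chemerin, presents it to neighbouring cells and forms dimers with CXCR2. Its transcript was near the detection limit in unstimulated libraries, with 5 and 2 counts in the WT libraries and 5 and 12 counts in those of Padi4 KO mice. After R848 there were 104 and 109 counts in the WT libraries and 147 and 125 in the KO libraries. In CPM these were 212 and 193 in WT and 131 and 115 in Padi4 KO, so every R848 library was well above every unstimulated one. Ccrl2 rose 34.5-fold in WT (log2 fold change 5.11, standard error 0.32) and 16.1-fold in Padi4 KO neutrophils (4.01, standard error 0.25). Without WT unstimulated library 1 the log2 fold change in WT was 5.81, and without WT unstimulated library 2 it was 4.68. With so few unstimulated counts, the difference of -1.10 had a 95% interval of -2.35 to 0.14 and was not called (adjusted p = 0.469), and it ran from -1.81 to -0.67 over the same omissions.

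The lipid mediator receptors moved in opposite directions. Ltb4r1 (chromosome 14, 55765962 to 55768494, plus strand) encodes the high-affinity receptor of leukotriene B4, the lipid by which swarming neutrophils recruit each other. It had 349 and 299 CPM in unstimulated WT libraries and 147 and 212 CPM after R848, and 199 and 205 CPM followed by 157 and 161 CPM in Padi4 KO libraries. As with Cxcr4, unstimulated WT libraries stood above all others. Ltb4r1 fell by 0.84 on the log2 scale in WT (standard error 0.14, adjusted p = 9.48e-09) and by 0.35 in Padi4 KO neutrophils (standard error 0.12, adjusted p = 0.0123). The responses differed by 0.49 (95% interval 0.13 to 0.85), which was not called after adjustment over all genes (adjusted p = 0.129). Leaving out 1 library moved this difference between -0.012 and 0.60, the latter without WT unstimulated library 2. The call in Padi4 KO was lost without Padi4 KO unstimulated library 2 (adjusted p = 0.135).

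Ptafr (chromosome 4, 132564067 to 132582683, plus strand) encodes the receptor of platelet-activating factor, which primes neutrophils. It had 74.2 and 57.0 CPM in unstimulated WT libraries and 369 and 398 CPM after R848, and 56.5 and 42.1 CPM followed by 290 and 282 CPM in Padi4 KO libraries. Its R848 libraries were several times above the unstimulated ones in either genotype. The rise was 5.81-fold in WT (log2 fold change 2.54, standard error 0.16) and 5.96-fold in Padi4 KO neutrophils (2.57, standard error 0.14), with a difference of 0.04 (95% interval -0.43 to 0.50).

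**Figure D2:**
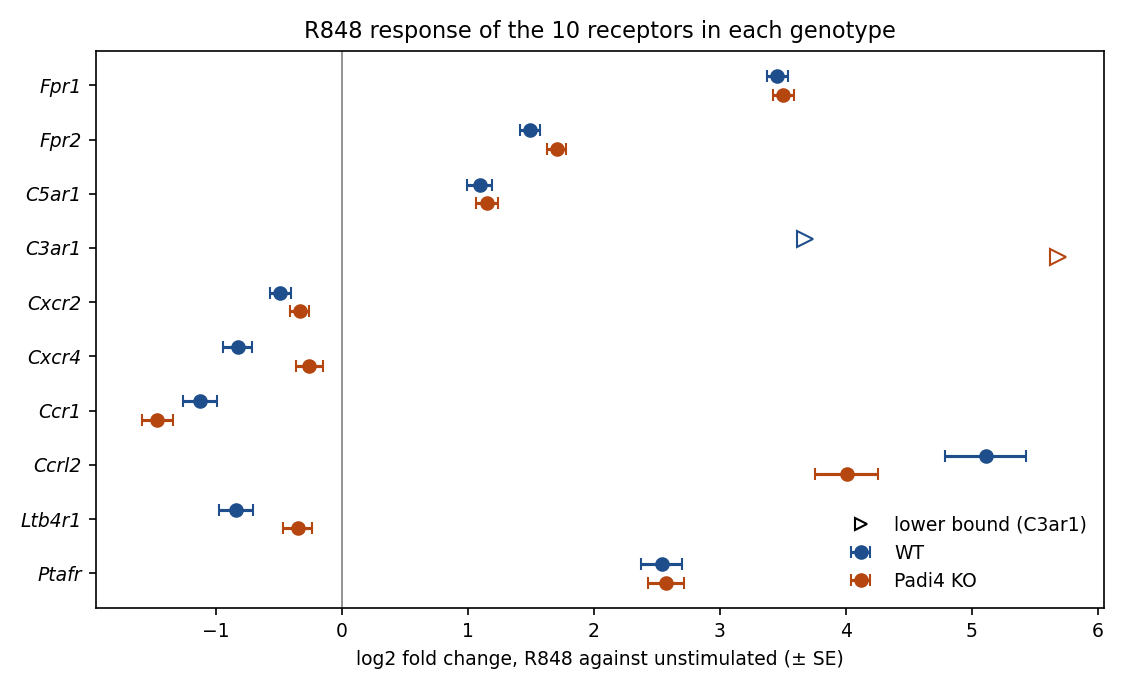
Log2 fold change of each receptor after R848 against unstimulated (x axis), with the standard error, in WT and Padi4 KO neutrophils (colours). Open triangles for C3ar1, which had no count in unstimulated libraries, are lower bounds of at least 12.8-fold and 51.4-fold; the points of the genotypes lie close for Fpr1, C5ar1 and Ptafr and apart for Ccrl2 (difference -1.10), Cxcr4 (0.57) and Ltb4r1 (0.49), of which that of Cxcr4 was called.

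The make-up of the receptor transcripts also changed with R848. The 10 receptors summed, relative to the library total, to 4120 and 4173 CPM in unstimulated WT and 8212 and 7833 CPM after R848, and to 3840 and 3691 followed by 7089 and 7037 CPM in Padi4 KO libraries. Fpr1 took 9.66% and 10.8% of these counts in unstimulated WT libraries and 47.4% and 46.3% after R848. In Padi4 KO libraries its share went from 7.71% and 9.83% to 41.7% and 40.8%. Cxcr2 held the largest share of counts before R848, 27.7% and 29.7% in WT and 36.1% and 35.2% in Padi4 KO. After R848 this was 8.56% and 8.57% in WT and 11.3% and 12% in Padi4 KO. In every state the Padi4 KO libraries gave a larger share to Cxcr2 than the WT libraries did.

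**Figure D3:**
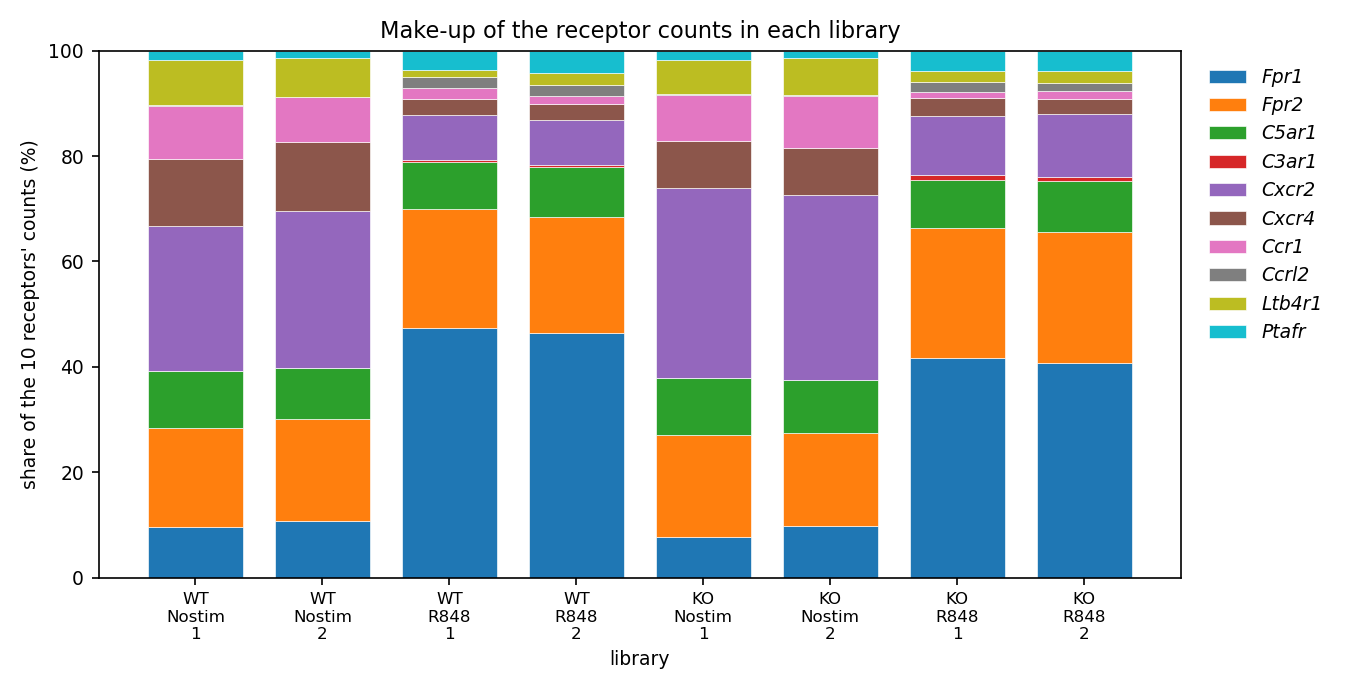
Share of the counts of the 10 receptors (%, y axis) held by each receptor (colours) in each of the 8 libraries (bars). The share of Fpr1 was 7.71% to 10.8% in the unstimulated libraries and 40.8% to 47.4% after R848, and that of Cxcr2 fell from at least 27.7% to at most 12%.

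Levels of different receptors were compared per length, as mean CPM divided by the kilobases of annotated exon. Before R848 the order was the same in both genotypes: Fpr2, Cxcr2, Fpr1, Cxcr4, Ltb4r1, C5ar1, Ccr1, Ptafr, Ccrl2 and C3ar1. It ran in WT from 597 CPM per kb for Fpr2 and 383 for Cxcr2 to 18.0 for Ptafr and 2.15 for Ccrl2, and in Padi4 KO from 433 and 355 to 13.6 and 2.76. The libraries of neighbours in this order did not overlap, except those of Cxcr4 and Ltb4r1 in Padi4 KO (150.2 and 145 CPM per kb). After R848, Fpr1 led with 3452 CPM per kb in WT and 2299 in Padi4 KO, followed by Fpr2 with 1683 and 1404. C5ar1 came next in WT (345) before Cxcr2 (274), and in Padi4 KO the libraries of Cxcr2 (281) and C5ar1 (269) overlapped. C3ar1 remained the lowest, with 7.41 CPM per kb in WT and 15.8 in Padi4 KO. In WT after R848 the libraries of Ltb4r1 and Ptafr also overlapped, as did those of Ccrl2 and Ccr1.

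Before stimulation, 6 of the 10 receptors had a lower level in Padi4 KO neutrophils and none a higher one, relative to WT. These were Cxcr4, Ltb4r1, Fpr1, Fpr2, Ccr1 and C5ar1. Over all genes tested, 9.55% were higher and 14.4% lower in unstimulated Padi4 KO neutrophils. With the stricter count filter, 1117 of 7376 genes were higher and 1808 lower. The median log2 fold change was -0.44 for the receptors, -0.03 for all genes and -0.16 for the 6912 with a mean of at least 10 counts. Cxcr4 showed the largest difference, at -0.96 on the log2 scale (adjusted p = 1.31e-18, standard error 0.10) and 0.515 of the WT level. Ltb4r1 followed with -0.68 (adjusted p = 1.19e-07) and Fpr1 with -0.63 (adjusted p = 8.91e-09). For Fpr2, Ccr1 and C5ar1 the values were -0.47, -0.42 and -0.41. Ccr1 was not called with DESeq2 (-0.36) or without WT unstimulated library 1 (-0.29), nor C5ar1 without Padi4 KO unstimulated library 2 (-0.31). Ptafr (-0.46, adjusted p = 0.129) and Cxcr2 (-0.11, adjusted p = 0.344) were not called, although their libraries did not overlap. Ptafr was called without WT unstimulated library 2 or Padi4 KO unstimulated library 1 (-0.63 in both). Ccrl2 had too few counts for a call (0.39, adjusted p = 0.744). The libraries of 8 receptors did not overlap, as was so for 55.4% of all genes tested. The decreases stood beside a lower level of all 10 neutrophil markers (median -0.60 with the main scaling), whose part was not tested.

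After R848, 7 receptors were lower and 1 was higher in Padi4 KO neutrophils. Over all genes tested, 9.46% were higher and 7.81% lower. With the stricter count filter, 1112 of 7376 genes were higher and 1011 lower. The medians were -0.37 for the receptors, 0.08 for all genes and -0.0019 for the 6912 with a mean of at least 10 counts. Besides C3ar1, which was higher, the called receptors were Ccr1 (-0.76, adjusted p = 2.51e-05), Ccrl2 (-0.72, adjusted p = 2.31e-05), Fpr1 (-0.59, adjusted p = 2.37e-16), Ptafr (-0.43), Cxcr4 (-0.39), C5ar1 (-0.36) and Fpr2 (-0.26). Cxcr2 (0.04, adjusted p = 0.827) and Ltb4r1 (-0.19, adjusted p = 0.467) were not called, and their libraries overlapped between the genotypes. Ltb4r1 was called without WT R848 library 1 (-0.56, adjusted p = 0.00887). For Cxcr2 the 95% interval ran from -0.12 to 0.20. The 8 other receptors did not overlap, as was so for 50.1% of all genes tested.

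These genotype differences moved with the scaling of the libraries. Scaled by library size alone, 3 receptors were lower before R848 (Cxcr4 -0.67, Ltb4r1 -0.39 and Fpr1 -0.34). After R848, 3 were lower (Ccr1 -0.54, Ccrl2 -0.50 and Fpr1 -0.37) and 2 higher (C3ar1 1.33 and Cxcr2 0.26). Cxcr2 in particular changed sign between scalings in both states and Ltb4r1 after R848. The median over the 6912 genes with at least 10 counts was -0.16 before and -0.0019 after R848 with the main scaling, and 0.12 and 0.21 with the library size alone. Calls over all 12254 genes before R848 were 1170 higher and 1763 lower in the main scaling and 1901 and 561 with the library size alone. Fitted and filtered on these groups alone, 11531 genes gave 1642 and 1226. After R848 they were 1159 and 957 against 1870 and 417, and the balance turned with RLE factors (990 and 1359) and DESeq2 (387 and 621). For the difference of the responses, they were 423 and 154 against 160 and 233 with RLE factors and 255 and 170 with the library size alone. For the R848 response, the library size alone gave 1075 higher and 3127 lower in WT and 1264 and 3823 in Padi4 KO, against 1657 and 1964, and 2352 and 1947, and RLE factors gave 1807 and 1740 in WT and 2059 and 2288 in Padi4 KO; the 10 receptors were called in the same directions with these scalings.

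**Figure D4:**
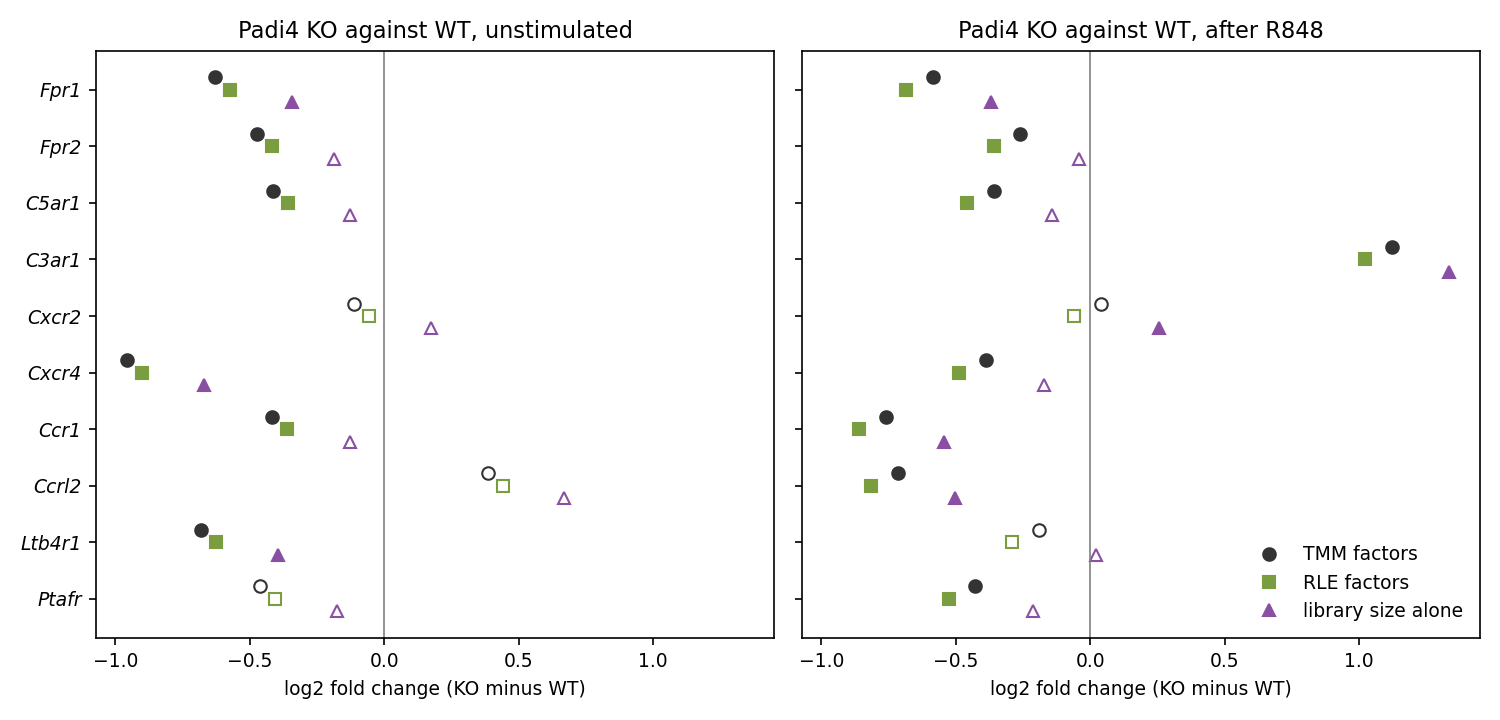
Log2 fold change of Padi4 KO against WT neutrophils (x axis) for each receptor, unstimulated (left) and after R848 (right), with 3 scalings of the libraries (symbols); filled symbols passed the false discovery rate of 0.1. Fpr1 was below 0 and called with each scaling in both states, and Cxcr2 lay on either side of 0; C3ar1 has no value on the left, having no counts.

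The genes around these receptors came from 3 further lists of receptors, ligands and signalling proteins. Of 38 other chemoattractant receptors, 37 were in the table and 26 were tested, many at a few counts only. After R848, 6 rose and 4 fell in WT, and 7 rose and 4 fell in Padi4 KO neutrophils. Over all genes tested 13.5% rose and 16.0% fell in WT, and 19.2% and 15.9% in Padi4 KO, so the share that fell was near that of all genes. Gpr84, a receptor of medium-chain fatty acids, rose with log2 fold changes of 4.07 in WT and 4.58 in Padi4 KO neutrophils, from 17.5 to 29.4 CPM in the group means to 437 to 494 CPM. Ffar2, a receptor of short-chain fatty acids, fell by 1.40 in WT and by 1.61 in Padi4 KO neutrophils. Ccr2, the monocyte receptor of CCL2, fell by 1.03 in WT and fell by 1.72 in Padi4 KO.

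In this list 1 response differed upwards and 1 downwards between genotypes, beside 3.45% and 1.26% of all genes tested. C5ar2, the second receptor of C5a, had 39 and 34 counts in unstimulated WT libraries and 12 and 12 after R848. In Padi4 KO libraries it had 27 and 48 followed by 32 and 40. It fell by 1.38 in WT, and its change of -0.03 in Padi4 KO was not called, with a difference of 1.36 (adjusted p = 0.0364). Gpr35 had 6 and 2 counts followed by 26 and 22 in WT, and 18 and 27 followed by 17 and 27 in Padi4 KO libraries. It rose by 2.77 on the log2 scale in WT and had 20.0 CPM in both Padi4 KO groups, a difference of -2.78 (adjusted p = 0.000265). Gpr35 was called whichever library was left out and with both other scalings, while C5ar2 was not called with RLE factors (adjusted p = 0.106) or without WT unstimulated library 1 or any 1 of the 4 R848 libraries. DESeq2 gave no adjusted p for either.

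Of 27 ligands and enzymes that make them, 24 were tested, and 11 rose and 7 fell in WT, while 10 rose and 9 fell in Padi4 KO neutrophils, beside 13.5% and 16.0% of all genes tested in WT and 19.2% and 15.9% in Padi4 KO. Ccl3, a CCR1 ligand, had 4 and 5 counts in unstimulated WT libraries and 658 and 640 after R848, and 4 and 4 followed by 892 and 796 in Padi4 KO libraries. Ccl4 went from 1 count in each unstimulated library to 130 to 328 counts, and Ccl5 from 0 in all unstimulated libraries to 11 and 10 counts in WT libraries and 82 and 48 in KO libraries. Saa3, an acute-phase ligand of FPR2, went from 0 and 1 to 28 and 46 counts in WT, and from 1 and 0 to 209 and 136 counts in the KO libraries. Ppbp, the precursor of a CXCR2 ligand made mainly by platelets, fell by 3.75 in WT and fell by 2.93 in Padi4 KO neutrophils.

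The response of Cxcl2, a ligand of CXCR2, differed most firmly in this list. It had 31 and 38 counts in unstimulated WT libraries and 397 and 313 after R848, and 60 and 68 followed by 207 and 178 in Padi4 KO libraries. After R848 every WT library was above every Padi4 KO library although it was less deep. Cxcl2 rose by 3.58 on the log2 scale in WT (standard error 0.15) and by 1.61 in Padi4 KO neutrophils (standard error 0.15), a difference of -1.97 (standard error 0.24, adjusted p = 1.92e-13). This was called with RLE factors, the library size alone and DESeq2, and whichever of the 8 libraries was left out. Lpcat1, which makes platelet-activating factor and surfactant lipids, fell by 2.14 in WT, with -0.37 and no call in Padi4 KO, and differed by 1.76 (adjusted p = 0.00725). That call was lost without WT R848 library 1 (1.29) or Padi4 KO R848 library 1 (1.38), and DESeq2 gave no adjusted p for it. Ccl6, a CCR1 ligand (difference 0.50, adjusted p = 0.0305), and Alox5, the 5-lipoxygenase of leukotriene synthesis (0.51, adjusted p = 0.0381), fell less in Padi4 KO neutrophils. Neither difference was called with RLE factors, the library size alone or DESeq2. The difference for Ccl6 went down to 0.17 without Padi4 KO R848 library 1, and that for Alox5 to 0.066 without WT R848 library 1.

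Of 42 genes of receptor signalling and desensitization, 41 were tested. In WT 14 rose and 13 fell after R848, where 13.5% and 16.0% of all genes did, and in Padi4 KO neutrophils 21 rose and 9 fell, against 19.2% and 15.9%. The split moved with scaling: the library size alone gave 11 and 18 in WT and 14 and 13 in Padi4 KO, and RLE factors gave 18 and 11 in WT. Adam17, the sheddase of L-selectin and other surface proteins, rose by 2.61 in WT and by 2.38 in Padi4 KO. Grk5, a receptor kinase, rose by 1.62 and 2.07. Gng2, a G protein gamma subunit, fell by 3.40 and 3.26, and Rgs18, which speeds the shutdown of Gi and Gq proteins, by 2.22 and 1.78. Before R848, 28 of the 41 were lower in Padi4 KO than WT neutrophils and none was higher, where 14.4% of all genes tested were lower and 9.55% higher, against 9 lower and 4 higher with the library size alone.

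In this list 10 responses differed between genotypes, all upwards in Padi4 KO, at a median difference of 0.33 beside 0.19 over all genes tested, of which 3.45% were called upwards and 1.26% downwards. The count was 3 with RLE factors, 2 with DESeq2, 5 with the library size alone, and 2 to 8 without 1 library. Leaving out WT R848 library 1 or WT R848 library 2 gave 2 upward and 2 downward calls. Phosphoinositide 3-kinase gamma supplied 3 of the 10. Its catalytic subunit Pik3cg had 199 and 194 counts in unstimulated WT libraries and 301 and 343 after R848, and 174 and 242 followed by 689 and 637 in Padi4 KO libraries. Pik3r5, its p101 regulatory subunit, had 153 and 124 followed by 116 and 131 counts in WT, and 119 and 210 followed by 339 and 334 in Padi4 KO libraries. In CPM, unstimulated Padi4 KO means were below WT for both (186 against 321 and 143 against 225), and after R848 they were 599 against 610 for Pik3cg and 304 against 234 for Pik3r5. The log2 rise of Pik3cg was 0.93 in WT and 1.70 in Padi4 KO neutrophils, a difference of 0.77 (adjusted p = 4.39e-05). Pik3r5 had 0.05 and no call in WT and rose by 1.07 in Padi4 KO, a difference of 1.02 (adjusted p = 3.56e-06). Both were called with RLE factors, the library size alone and DESeq2. Pik3r5 was called whichever library was left out, and Pik3cg in all cases but without Padi4 KO R848 library 1 (0.50, adjusted p = 0.121). The remaining differences were 0.83 for Pik3r6, another regulatory subunit, 0.80 for Arrb1 and 0.40 for Arrb2, the beta-arrestins, 0.59 for the receptor kinase Grk6, 0.54 for the Rac activator Dock2, 0.43 for the Rac activator Prex1, 0.35 for Anxa2 and 0.28 for Gnai2, the main Gi subunit of leukocytes. Of these 8, Arrb1 was called with both other scalings, Pik3r6 and Dock2 with the library size alone, and the other 5 with neither, and DESeq2 called none of the 8. Prex1 and Anxa2 were not called in any of the 8 omissions of 1 library, and Gnai2 ran from -0.062 without WT R848 library 1 to 0.36. The other 5 were called in 2 to 5 of the 8 omissions.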

How the data were processed

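Bone marrow neutrophils were profiled by paired-end sequencing of TruSeq libraries on a MiSeq in 4 groups of 2 libraries. The deposited values are raw read counts per gene, made by the authors from reads of the mm10 build. The submitters' processing notes name FastQC 0.11.7, cutadapt 1.16, STAR 2.5.3a and HTSeq 0.6.1p1. The annotation used for counting and its strand setting are not given in the sources used here. Between 86.97% and 89.45% of the reads listed for a library were on genes; rows that name no gene stayed out of library sizes and tests.

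Genes with at least 1 count in at least 2 libraries were tested with edgeR 4.0.16 in R 4.3.3 (TMM factors, 0.804 to 1.25, quasi-likelihood fit over all 8 libraries with 1 coefficient per group, Benjamini-Hochberg adjustment over 12254 genes, false discovery rate of 0.1). The comparisons were the R848 response in each genotype, the difference of these responses (Padi4 KO minus WT), and Padi4 KO against WT in each state. The comparisons of genotypes share their libraries with the responses, so their values are only set side by side. CPM values are counts scaled to totals of 1e+06 after TMM, unless given relative to the library total alone. DESeq2 1.42.0, other scalings, filters and thresholds, a replicate block and the omission of each library were tried. Scripts were tested on simulated data. The members of the group and the gene lists were chosen with earlier results of these data known. From each list the text names every gene called in the difference of responses and, in each genotype, the 2 largest rises and the 2 largest falls among called genes with a mean of at least 10 counts. Some genes that this rule selects are not reported here. For Cxcr4, the 3 genes with a mean of at least 50 counts and the highest Pearson r are named.

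Duplicates were compared by a chi-square test of their counts, which gave 1.05 to 1.67 per degree of freedom and differed by more than sampling noise in each group (largest p = 0.000151). This says only that they are not 1 library listed again, and not that they came from separate animals. Same-numbered libraries did not deviate together (correlation -0.0098 to 0.035 over 2919 genes), so the numbers do not pair the libraries. The positions of genes are from the GENCODE annotation of GRCm38, the assembly that mm10 names, and promoters are from RefSeq on GRCm38.p6, in which all 10 receptors were found.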

Additional observations from a re-analysis of the deposited data

Results flagged for a closer look

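The R848 response of Cxcr4 drew attention because it differed between the genotypes in a test of the difference itself. Cxcr4 fell by 0.83 on the log2 scale in WT and by 0.26 in Padi4 KO neutrophils, and the difference was 0.57 (95% interval 0.26 to 0.88, edgeR's quasi-likelihood test, Benjamini-Hochberg adjusted p = 0.0143). The WT libraries went from 518 and 532 CPM to 309.8 and 283 CPM, and the Padi4 KO libraries from 278 and 264 CPM to 242 and 210.5 CPM. With RLE factors the difference was 0.41 (adjusted p = 0.168) and with DESeq2 0.41 (adjusted p = 0.456), and leaving out 1 library gave 0.23 to 0.59, with the call lost in 5 of 8 cases. The groups of 2 libraries were too small for a check of single libraries that stand apart.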

How the results depend on the processing

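In the R848 responses, 10 receptors were called in WT under every alternative that did not ask for a 2-fold change, and in Padi4 KO 9 with DESeq2 or a false discovery rate of 0.05 and 8 to 10 without 1 library. Asking for over 2-fold left 7 in each genotype. In the difference of responses, the count of 1 became 0 with DESeq2 (none at an unadjusted p under 0.05 in DESeq2), 0 with RLE factors (3 at an unadjusted p under 0.05 in edgeR), 0 with over 2-fold, and 0 to 2 without 1 library. Before R848, the 6 receptors lower in Padi4 KO became 3 with the library size alone, 0 with over 2-fold, and 5 to 7 without 1 library. After R848, the 8 called became 5 with the library size alone, 1 with over 2-fold, and 7 to 9 without 1 library. With the replicate block, which rests on numbers that do not pair the libraries, the counts were 10, 10, 1, 6 and 8, as without it. Over all genes, DESeq2 called 125 in the difference (35 higher and 90 lower) against 577, 2264 against 3621 in WT and 2121 against 4299 in Padi4 KO, 1061 against 2933 before and 1008 against 2116 after R848.

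Some values changed sign, many of them near 0 in the main fit. Others were larger there, such as the difference for Ltb4r1 (0.49) and Ccrl2 before R848 (0.39). In the difference of responses, DESeq2 gave -0.10 for C5ar1, -0.0013 for Cxcr2, -0.11 for Fpr1 and -0.13 for Ptafr. RLE factors gave -0.098, -0.00013, -0.11 and -0.12 for the same genes, and the library size alone gave -0.014 for C5ar1, -0.024 for Fpr1 and -0.037 for Ptafr. For Padi4 KO against WT after R848, Cxcr2 was -0.059 with DESeq2 and -0.059 with RLE factors, and Ltb4r1 was 0.022 with the library size alone. Before R848, Cxcr2 was 0.17 with the library size alone and 0.029 with the groups fitted alone. Without 1 library the difference ran from -0.21 to 0.13 for C5ar1, -0.14 to 0.20 for Cxcr2, -0.27 to 0.20 for Fpr1, -0.097 to 0.30 for Fpr2, -0.012 to 0.60 for Ltb4r1 and -0.29 to 0.21 for Ptafr. Padi4 KO against WT ran from -0.11 to 0.045 for Cxcr2 and -0.56 to 0.034 for Ltb4r1 after R848, and from -0.042 to 1.09 for Ccrl2 and -0.16 to 0.032 for Cxcr2 before it. The cause of these changes was not tested. Depth limits C3ar1 and Ccrl2 before R848, with 0 and with 2 to 12 counts in a library.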
